A study of Caenorhabditis elegans with 12 samples.

Results

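The dod genes, named for being downstream of DAF-16, were followed here as a set of 10 rows of a gene count table, dod-3, dod-6 and dod-17 to dod-24, out of 46739 genes in the table. They were chosen by name. RNA was sequenced from whole Caenorhabditis elegans, 100 worms per sample, grown at 20 °C and collected 24 h after the L4 stage, which the labels call day 2. The 4 groups, with 3 biological replicates each, were N2 (the wild-type laboratory strain), daf-2 (the insulin/IGF-1 receptor mutant), a double mutant of the zinc-finger genes spr-4 and spr-3 (called the spr double mutant here), and libraries labelled with all 3 genes (called triple-labelled). No allele is given for any of the genes, and no treatment was applied.

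DAF-16 is the FOXO transcription factor that the insulin receptor pathway holds out of the nucleus. When daf-2 signalling falls, DAF-16 enters the nucleus, and the genes that then rise are called class 1 while those that then fall are called class 2. The class 2 genes are linked to the motif bound by PQM-1, a zinc-finger factor that enters nuclei when DAF-16 is out of them, and several of them are active in the intestine and respond to pathogens. dod-3 and dod-6 carry class 1 names and the other 8 carry class 2 names. dod-17, dod-21, dod-22 and dod-24 encode proteins with CUB-like domains, a family known from the response to bacterial infection, and dod-22 and dod-24 are often used as readouts of that response.

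Library totals ran from 30837773 to 48894725 counts. Levels are given as CPM, the reads of a gene scaled to the library total, between libraries by TMM, with the SD over 3 libraries. A gene was called when the adjusted p of edgeR's quasi-likelihood test was below 0.05. Of the genes named in the labels, spr-3 had 17.3 ± 1.06 CPM for N2, 17.5 ± 1.44 for daf-2, 9.22 ± 0.779 for the spr double mutant, and 16.39 ± 1.24 for triple-labelled worms. The triple-labelled libraries thus lacked the lower spr-3 level of the double mutant. spr-4 had 76.1 ± 1.75 CPM for N2, 70.8 ± 3.06 for daf-2, 64.1 ± 1.42 for the spr double mutant and 61.1 ± 3.15 for triple-labelled worms, and was lower with the spr label both without the daf-2 label (-0.25, edgeR adjusted p = 0.000119) and with it (-0.21, edgeR adjusted p = 0.000565). daf-2 itself had 94.7 ± 1.8 CPM in N2 and 86.6 ± 9.68 in daf-2 (-0.13, edgeR adjusted p = 0.0979), and a mutation that leaves a transcript in place need not appear in gene counts. 9 of the 10 dod genes had enough reads to be tested, and dod-21 did not.

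The positions of the genes in WBcel235 are as follows. dod-3 (WBGene00016052) lies on chromosome V from 2730622 to 2731098, dod-6 (WBGene00011869) on III from 10197716 to 10198352, dod-23 (WBGene00009898) on II from 8398161 to 8399164 and dod-18 (WBGene00008316) on I from 8019578 to 8020901. dod-19 (WBGene00022644, V, 411782 to 414759) and dod-20 (WBGene00015259, V, 422433 to 424177) are 7.67 kb apart. dod-21 (WBGene00007873, 12936738 to 12937988), dod-24 (WBGene00007875, 12940106 to 12941354), dod-22 (WBGene00010125, 12965374 to 12967392) and dod-17 (WBGene00010745, 12976303 to 12978343) share a stretch of 41.6 kb on chromosome IV. All 10 are annotated as protein coding. Only dod-18 overlaps other annotated genes: C54G4.7 on the opposite strand covers 40.8% of its exon bases, and the counting's strand setting is not given in the sources used here, so dod-18 values are uncertain.

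The class 1 genes dod-3 and dod-6 were higher in daf-2 than in N2. dod-3 had 3.87, 3.74 and 4.17 CPM for N2, 50.6, 49.4 and 44.4 for daf-2, 8.4, 14.5 and 10.4 for the spr double mutant, and 50.9, 53.4 and 56.4 for triple-labelled worms. N2 was lowest and the spr double mutant next, and both groups with the daf-2 label stood far above them. dod-3 rose by 3.61 ± 0.15 (log2, SE) in daf-2 against N2 (edgeR adjusted p = 1.8e-09), a 12.25-fold difference in level, and 85 of the 15764 genes tested rose further in that comparison.

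dod-6 had 27.5, 27.3 and 26.7 CPM for N2, 141, 151 and 144 for daf-2, 49.9, 68.7 and 53.4 for the spr double mutant, and 267, 289 and 296 for triple-labelled worms. All 4 groups were separate, in the order N2, spr double mutant, daf-2, triple-labelled. The rise in daf-2 against N2 was 2.42 ± 0.10 (edgeR adjusted p = 2.31e-09). Per kb of exon, dod-6 was the more abundant of the pair in every group: in N2 its level was 46.7 ± 0.721 CPM per kb against 9.35 ± 0.531 for dod-3, and in the triple-labelled libraries 488 ± 26.2 against 127.5 ± 6.65.

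**Figure D1:**
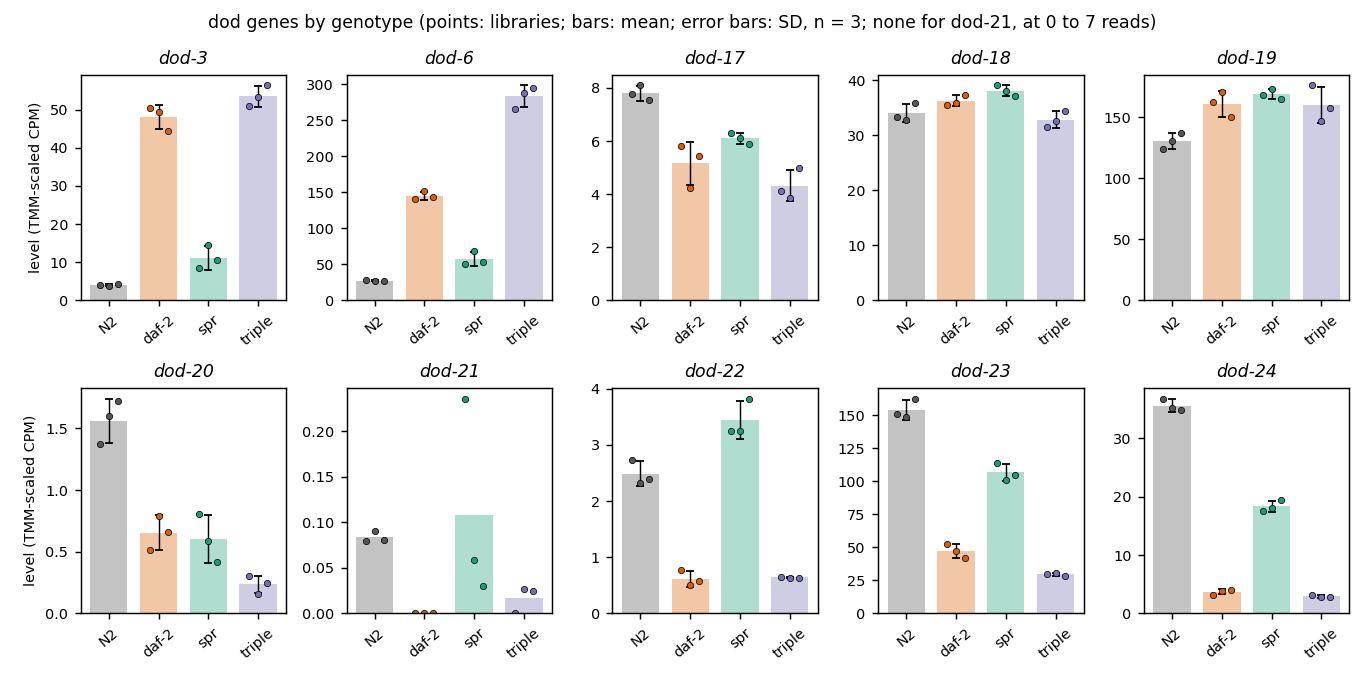
Level of each dod gene (y axis, TMM-scaled CPM, linear and starting at 0, a scale of its own for each gene) in N2, daf-2, the spr double mutant (spr) and the triple-labelled libraries (triple), with points for libraries, bars for means and error bars for the SD (n = 3; none for dod-21). dod-3 and dod-6 are high in both groups with the daf-2 label, and dod-22, dod-23 and dod-24 are low there. dod-20 is lower than in N2 in every other group, the spr double mutant included, and dod-18 and dod-19 keep to narrow ranges.

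Of the class 2 genes, 5 of the 7 that could be tested fell in daf-2 against N2 and 1 rose, where 26.9% of all genes tested were lower and 27.4% higher (edgeR). dod-24 had the deepest fall. Its level was 36.8, 35.2 and 34.9 CPM for N2, 3.22, 3.81 and 4.06 for daf-2, 17.6, 18 and 19.5 for the spr double mutant, and 3.22, 2.79 and 2.83 for triple-labelled worms. The groups without the daf-2 label stood apart from each other and well above the daf-2 and triple-labelled groups, which lay close together. dod-24 fell by 3.27 ± 0.08 on the log2 scale in daf-2 against N2 (edgeR adjusted p = 2.86e-17), so its N2 level was 9.67 times its daf-2 level.

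dod-22, with CUB-like domains as well, had 2.74, 2.32 and 2.4 CPM for N2, 0.767, 0.498 and 0.58 for daf-2, 3.24, 3.25 and 3.82 for the spr double mutant, and 0.652, 0.639 and 0.635 for triple-labelled worms. It was highest in the spr double mutant, and the daf-2 and triple-labelled groups overlapped. It fell by 2.01 ± 0.18 in daf-2 against N2 (edgeR adjusted p = 5.93e-09). dod-17, which lies 8.91 kb from dod-22 on chromosome IV, moved less: 7.76, 8.1 and 7.53 CPM for N2, 5.8, 4.24 and 5.44 for daf-2, 6.31, 6.13 and 5.88 for the spr double mutant, and 4.1, 3.86 and 4.98 for triple-labelled worms. Every library of the other groups was below the N2 libraries, and the fall in daf-2 was 0.59 ± 0.11 (edgeR adjusted p = 0.000125).

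dod-23 was the most abundant class 2 gene per kb of exon in N2, at 208 ± 10.2 CPM per kb. Its level was 151, 148 and 163 CPM for N2, 52.3, 47.6 and 42 for daf-2, 114, 101 and 105 for the spr double mutant, and 29.7, 30.5 and 28.4 for triple-labelled worms. The 4 groups did not overlap, in the order N2, spr double mutant, daf-2, triple-labelled, which is the order of dod-6 turned around. In daf-2 against N2 the log2 difference was -1.70 ± 0.06 (edgeR adjusted p = 1.13e-12).

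dod-20 was a low gene, at 1.37, 1.6 and 1.72 CPM for N2, 0.511, 0.79 and 0.662 for daf-2, 0.809, 0.586 and 0.418 for the spr double mutant, and 0.303, 0.16 and 0.244 for triple-labelled worms. daf-2 and the spr double mutant overlapped between a higher N2 and a lower triple-labelled group. It fell by 1.25 ± 0.23 in daf-2 against N2 (edgeR adjusted p = 0.000106), and its counts of 6 to 69 reads per library make it the least precise of the tested genes.

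dod-19 and dod-18 did not share the fall. dod-19 had 124, 130 and 137 CPM for N2, 162, 171 and 150 for daf-2, 168, 173 and 165 for the spr double mutant, and 176, 147 and 158 for triple-labelled worms. N2 was below every other library. Against N2 it was higher in daf-2 by 0.30 ± 0.06 (edgeR adjusted p = 0.000324), the opposite direction to its class name. dod-18 lay between 31.5 and 39.1 CPM in all 12 libraries, and its log2 difference between daf-2 and N2 was 0.09 (edgeR adjusted p = 0.146). That difference passed without N2 replicate 3, at 0.15 (edgeR adjusted p = 0.0365).

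dod-21 had 4, 3 and 3 reads in the N2 libraries, 0 in each daf-2 library, 7, 2 and 1 in the spr double mutant, and 0, 1 and 1 in the triple-labelled libraries. N2 and the spr double mutant held 10 reads each in all, while daf-2 held none. Summed over each group and with a floor of 3 reads in place of 0 for the daf-2 group, dod-21 was 3.13-fold lower in daf-2 than in N2. That value leaves out the counting error of the 10 N2 reads, so it is not a strict lower bound. Between the triple-labelled group and the spr double mutant the ratio of levels was 0.168 (exact 95% counting interval 0.0179 to 0.789), and 7 of the 10 spr double mutant reads came from replicate 1. In a fit without the filter on low counts that difference did not pass (edgeR adjusted p = 0.0829). Such an interval covers counting error only. The 3.13-fold value and the ratio of 0.168 were taken from summed reads over library totals, without TMM.

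In all, 3 of the 9 tested dod genes were higher and 5 lower in daf-2 than in N2 (edgeR), where 27.4% of all genes tested were higher and 26.9% lower. Their median log2 fold change was -0.59, against 0.00 over all genes: 3.02 for the class 1 pair and -1.25 for the tested class 2 genes. The gene lists were chosen with earlier results of these data known, so list counts here and below are no separate support for the dod values. Of the listed genes known to be raised by DAF-16, 20 of 24 tested were higher and 2 lower (1 lower without daf-2 replicate 1), with a median of 1.09. Among them nnt-1, a mitochondrial transhydrogenase, rose by 3.09 ± 0.13 and the metallothionein gene mtl-1 by 3.07 ± 0.17. That list also holds daf-16 itself, which fell by 0.17. Of 7 tested genes known to be lowered in daf-2 through DAF-16, 4 were lower and 1 higher, and the number higher was 2 with no filter or with limma-voom, 3 without daf-2 replicate 1, and 2 without daf-2 replicate 2, triple-labelled replicate 1 or 2, N2 replicate 3 or any 1 of the spr double mutant libraries. The intestinal peptide transporter gene pept-1 fell by 2.17 ± 0.12 and nuc-1, a nuclease gene, by 0.58 ± 0.06. The summed level of all 8 listed genes did not fall, at 43280 to 50300 CPM in N2 and 51420 to 56630 in daf-2.

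Effectors of the p38 MAP kinase PMK-1, which acts in the intestinal defence that dod-22 and dod-24 read out, were mostly higher: of 10 tested members 6 were higher in daf-2 than in N2, 1 was lower and 3 did not pass. The lysozyme gene lys-2 went from 155 ± 14.7 to 529 ± 42 CPM (1.77 ± 0.08), while irg-5, an infection response gene, went from 7.22 ± 0.855 to 1.94 ± 0.35 CPM (-1.90 ± 0.14). Among transcription factors and kinases of the 2 pathways, pqm-1 rose from 26.8 ± 1.45 to 51 ± 2.42 CPM (0.93 ± 0.08) and tir-1, the adaptor at the top of the p38 cascade, by 0.63 ± 0.07. zip-2 rose by 0.45, while the log2 difference was -0.15 for pmk-1, -0.10 for the intestinal GATA factor gene elt-2 and -0.06 for atf-7, none of which passed.

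Marker genes of tissues differed between these groups too. The summed level of 12 intestinal genes was 3943 to 4082 CPM for N2, 3004 to 3206 for daf-2, 3612 to 3713 for the spr double mutant, and 3062 to 3252 for triple-labelled worms, with no gene of the list at 0. Within it the esterase gene ges-1 rose by 1.24 in daf-2 against N2 and the protease gene asp-1 fell by 1.09. asp-1 alone went from 1875 ± 33.2 CPM in N2 to 881 ± 96 in daf-2, while the mean sum went from 4020 to 3082. The lower sum in daf-2 than in N2 thus follows asp-1. By gene, 4 of the 12 were higher and 8 lower in daf-2 than in N2, with a median of -0.22. Summed levels of 14 sperm genes were 85.9 to 125 CPM for N2, 6.24 to 9.82 for daf-2, 41.3 to 51.4 for the spr double mutant, and 24.7 to 33.6 for triple-labelled worms, with msp-36 and msp-3, both major sperm protein genes, at -5.54 and -5.53 in daf-2 against N2. Those of 10 oocyte genes were 6842 to 6986, 6177 to 6440, 6411 to 6550 and 4659 to 4952 CPM in the same order, with rme-2 at -0.30 and chs-1 at -0.28. The 10 epidermal genes summed to 258 to 283, 180 to 191, 206 to 221 and 179 to 181 CPM. Their largest called log2 differences in daf-2 against N2 were -6.36 for rol-6 and -4.08 for bli-1, both cuticle genes. The 12 muscle genes summed to 6018 to 6305, 5041 to 6216, 6432 to 6649 and 5786 to 6553 CPM. Their largest called log2 differences were -0.63 for unc-22 and -0.56 for mup-2. In whole animals fewer cells of a type and less RNA per cell cannot be told apart, and the part of tissue makeup in the dod differences was not tested.

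Ribosomal RNA genes took 0.15 to 0.181% of counts in daf-2 and 0.0348 to 0.046% in the N2 and spr double mutant libraries, and its part in the differences from daf-2 was not tested. It was 0.041 to 0.0458% in the triple-labelled libraries.

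Triple-labelled against spr double mutant libraries compares the daf-2 label among worms that carry the spr label. dod-3 rose by 2.26 ± 0.14 (edgeR adjusted p = 6.75e-08) and dod-6 by 2.30 ± 0.10 (4.22e-09). 6 of the 7 tested class 2 genes fell, with log2 differences of -2.64 ± 0.09 for dod-24, -2.42 ± 0.17 for dod-22, -1.85 ± 0.07 for dod-23, -1.32 ± 0.34 for dod-20, -0.50 ± 0.12 for dod-17 and -0.21 ± 0.05 for dod-18. dod-19 was at -0.07 (edgeR adjusted p = 0.317). The 2 higher and 6 lower dod genes stand against 25.8% higher and 23.5% lower among all genes tested. With library totals as the only scaling, 68.1% of all calls in this comparison were higher, against 52.3% with TMM, and the dod calls numbered 8 both ways. Of the genes known to be raised by DAF-16, 20 of 24 were higher and 3 lower, and of those known to be lowered 5 of 7 were lower and 0 higher. The number higher in the latter list was 1 with library totals, with no filter, and without daf-2 replicate 1 or 2, triple-labelled replicate 1 or 2, spr double mutant replicate 2 or 3 or any 1 of the N2 libraries.

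**Figure D2:**
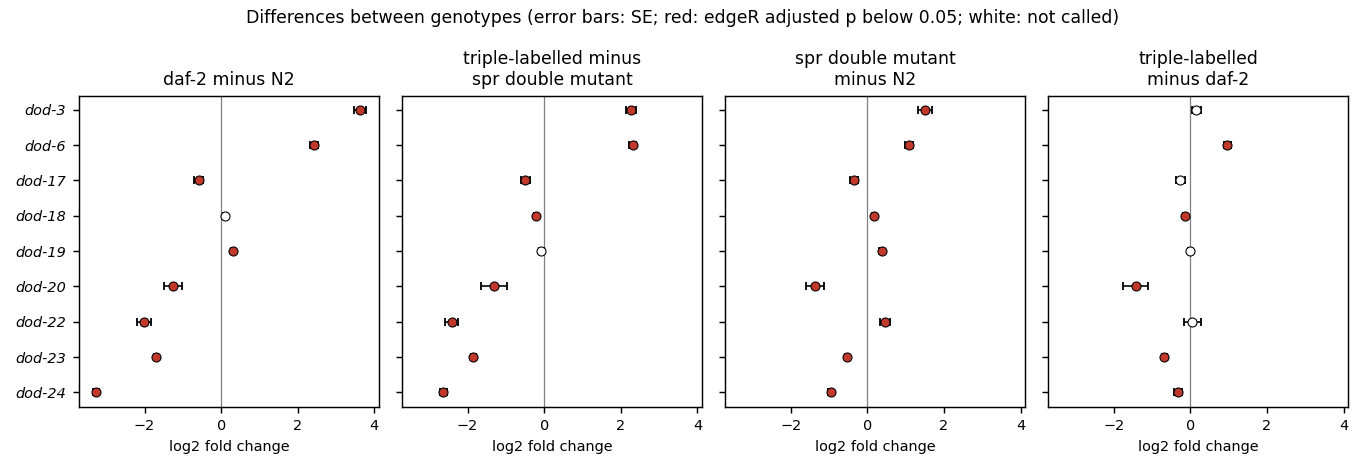
Log2 fold change (x axis, same scale in each panel) of the 9 tested dod genes in 4 comparisons, with error bars for the SE, red points for edgeR adjusted p below 0.05 and white points for genes not called. The left panels, both for the daf-2 label, have dod-3 and dod-6 between 2.26 and 3.61 and dod-24 at -3.27 and -2.64. In the right panels, both for the spr label, dod-3 is at 1.51 and 0.15 and dod-24 at -0.96 and -0.32.

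The spr label was compared with its absence in worms without and with the daf-2 label. In the spr double mutant every tested dod gene differed from N2: 5 were higher and 4 lower, where 24.6% of all genes were higher and 21.9% lower (edgeR). With library totals as the only scaling, 35% of all calls in this comparison were higher, against 53% with TMM. dod-3 rose by 1.51 ± 0.17 (edgeR adjusted p = 2.95e-05) and dod-6 by 1.08 ± 0.10 (7.09e-06), both in the daf-2 direction but smaller than the rise in daf-2. Replicate 2 of the spr double mutant was the highest of its group in both genes, and without it the calls held. dod-20 fell by 1.37 ± 0.24, dod-24 by 0.96 ± 0.07, dod-23 by 0.53 ± 0.06 and dod-17 by 0.35 ± 0.11, again in the daf-2 direction.

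dod-22, on chromosome IV as dod-24 and dod-17 are, was not lower there. It was higher than in N2 by 0.46 ± 0.14 (edgeR adjusted p = 0.0113), but without spr double mutant replicate 3 it was at 0.38 and did not pass (edgeR adjusted p = 0.0661). The same library decided dod-17, which without it stood at -0.32 and did not pass (edgeR adjusted p = 0.0535). dod-19 was higher by 0.37 ± 0.06 and dod-18 by 0.16 ± 0.05 (edgeR adjusted p = 0.0147). The dod-18 call was lost with library totals as the only scaling, at 0.07 (edgeR adjusted p = 0.298), and without N2 replicate 1 (0.0638), N2 replicate 2 (0.0902) or spr double mutant replicate 1 (0.0606). Genes known to be raised by DAF-16 were higher in 17 of 24 members and lower in 2 (in 1 without N2 replicate 1 or 2 or spr double mutant replicate 1 or 2), with nnt-1 at 1.21 and mtl-1 at 1.33. Of the 7 tested genes known to be lowered in daf-2 through DAF-16, 4 were higher and 3 lower, with a median of 0.40, not in the daf-2 direction. The p38 effectors were higher in 7 of 10 members and lower in 1.

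In the triple-labelled libraries against daf-2, 1 tested dod gene was higher and 4 were lower, where 26.1% of all genes were higher and 20.9% lower (edgeR). dod-6 rose by 0.97 ± 0.09 (edgeR adjusted p = 7.18e-06), a 1.95-fold difference on top of its rise in daf-2. dod-20 fell by 1.43 ± 0.32 (edgeR adjusted p = 0.00116) and dod-23 by 0.68 ± 0.07 (edgeR adjusted p = 7.36e-07). The other 2 falls were small and depended on single libraries. dod-24 stood at -0.32 ± 0.11 (edgeR adjusted p = 0.0194) and did not pass without daf-2 replicate 3 (0.0876), triple-labelled replicate 2 (0.064) or triple-labelled replicate 3 (0.0641) and in a fit of only these groups (0.0654). dod-18 stood at -0.14 ± 0.05 (edgeR adjusted p = 0.0298) and did not pass without daf-2 replicate 3 (0.0787), triple-labelled replicate 1 (0.102) or triple-labelled replicate 2 (0.0736), with library totals as the only scaling (0.108), with at least 1 CPM in 6 libraries (0.0586) or in a fit of only these groups (0.0662). The total was 3 dod genes without daf-2 replicate 3, and 3 without triple-labelled replicate 2.

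The log2 difference between triple-labelled and daf-2 libraries was 0.15 ± 0.12 for dod-3 (edgeR adjusted p = 0.305), 0.05 ± 0.23 for dod-22 (0.884), -0.01 ± 0.06 for dod-19 (0.942) and -0.26 ± 0.12 for dod-17 (0.0752). The dod-17 fall passed without daf-2 replicate 2, at -0.39 (edgeR adjusted p = 0.0111), and without triple-labelled replicate 3, at -0.38 (0.0232). In a fit of only these groups dod-3 passed at 0.16 (edgeR adjusted p = 0.0448). Of the genes known to be raised by DAF-16, 10 of 24 were higher and 3 lower (1 lower without triple-labelled replicate 3). Of the 7 tested genes known to be lowered in daf-2 through DAF-16, 2 were higher and 3 lower. pqm-1 was higher by 0.19 (edgeR adjusted p = 0.0461). Of the 10 p38 effectors 5 were higher and 2 lower, with a median of 0.30, while irg-5 at 0.15 and lys-2 at 0.14 did not pass. The daf-2 libraries enter both this comparison and that with N2, and the N2 libraries enter those of daf-2 and of the spr double mutant, so these values are set side by side only.

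Against N2, the triple-labelled libraries had 3 higher and 5 lower dod genes, where 35.4% of all genes tested were higher and 33.3% lower (edgeR). dod-3 stood at 3.77 ± 0.15 and dod-6 at 3.38 ± 0.10, a 10.4-fold difference in level. dod-24 stood at -3.59 ± 0.09, dod-20 at -2.69 ± 0.28, dod-23 at -2.38 ± 0.07, dod-22 at -1.96 ± 0.18 and dod-17 at -0.85 ± 0.11. dod-19 was higher by 0.30 ± 0.06, and dod-18 was at -0.05 (edgeR adjusted p = 0.396). The triple-labelled libraries held the highest mean of dod-6 and the lowest means of dod-17, dod-20, dod-23 and dod-24 among the 4 groups.

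Whether the daf-2 difference depends on the spr label was tested as the interaction, the daf-2 difference with the spr label minus that without it. 1 tested dod gene was higher and 3 were lower in it, where 14.1% of all genes were higher and 14.6% lower (edgeR). dod-3 had the largest term, -1.35 ± 0.21 (edgeR adjusted p = 0.000703): its rise was 3.61 without the spr label and 2.26 with it, since the spr double mutant stood above N2 while daf-2 and triple-labelled levels were close. For dod-24 the term was 0.64 ± 0.13 (edgeR adjusted p = 0.00087), with differences of -3.27 without the label and -2.64 with it, and again the difference lay mainly in the starting level, 35.6 ± 1.06 CPM in N2 and 18.4 ± 0.982 in the spr double mutant. dod-19 had -0.38 ± 0.08 (edgeR adjusted p = 0.00287) and dod-18 -0.30 ± 0.07 (edgeR adjusted p = 0.00379). The dod-18 term was -0.18 with library totals as the only scaling (edgeR adjusted p = 0.0823).

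For the other 5 tested genes the interaction did not pass: dod-6 was at -0.11 ± 0.13, dod-17 at 0.09 ± 0.16, dod-20 at -0.06 ± 0.38, dod-22 at -0.41 ± 0.27 and dod-23 at -0.15 ± 0.09. dod-23 passed without daf-2 replicate 3, at -0.23 (edgeR adjusted p = 0.0292). A term that does not pass does not show that the daf-2 difference was the same with and without the spr label. With library totals as the only scaling, 77.5% of all interaction calls were higher, against 49.2% with TMM, and the median term over all genes was 0.13 in place of 0.01. Of the genes known to be raised by DAF-16, 1 of 24 was higher and 10 lower in the interaction, with nnt-1 at -0.84 ± 0.17, while mtl-1 at -0.51 ± 0.23 did not pass (edgeR adjusted p = 0.137). Of those known to be lowered, 1 of 7 was higher and 2 were lower, with pept-1 the higher one at 0.82 ± 0.18, while nuc-1 at 0.03 ± 0.09 did not pass (edgeR adjusted p = 0.841). With library totals the number higher was 2 in each list, and in the first it was also 2 with no filter and without daf-2 replicate 1 or spr double mutant replicate 2.

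**Figure D3:**
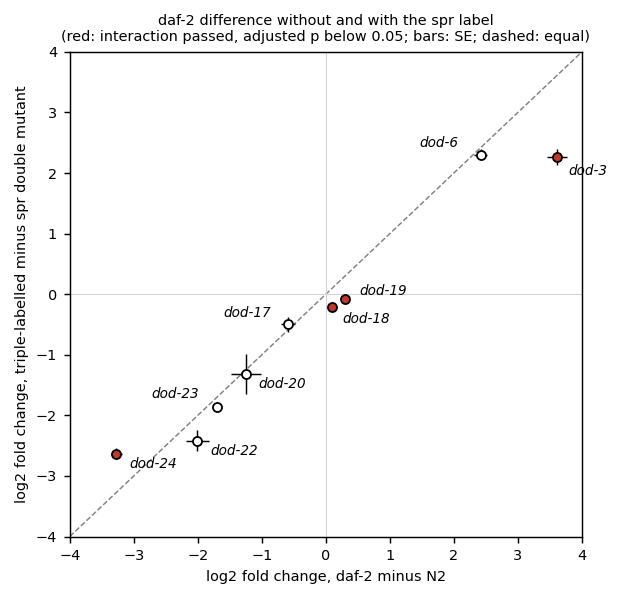
Log2 fold change for the daf-2 label without the spr label (x axis, daf-2 minus N2) and with it (y axis, triple-labelled minus spr double mutant) for the 9 tested dod genes, with bars for the SE and a dashed line where both are equal. Red points passed the interaction test: dod-3 lies below the line at 3.61 and 2.26, and dod-24 above it at -3.27 and -2.64.

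On chromosome IV the 4 dod genes with CUB-like domains share their stretch with 9 other protein-coding genes, 4 of which had enough reads to be tested. This stretch was chosen after the positions of the dod genes were seen. F55G11.2, which lies beside dod-22, fell by 2.25 in daf-2 against N2 (edgeR adjusted p = 5.13e-12) and by 2.46 in triple-labelled against spr double mutant libraries, and F55G11.8, on the other side of dod-22, stood at -1.82 and -1.17. Between dod-22 and dod-17, F55G11.4 went the other way, from 12.4 CPM in N2 to 27 in daf-2, a rise of 1.12 (edgeR adjusted p = 1.39e-10), and F55G11.1, near dod-24, was at -0.37 (edgeR adjusted p = 0.369). None of these 4 genes passed in the spr double mutant against N2, nor in the interaction. The handling of reads with more than 1 match is not given in the sources used here, so values of related neighbours are uncertain.

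**Figure D4:**
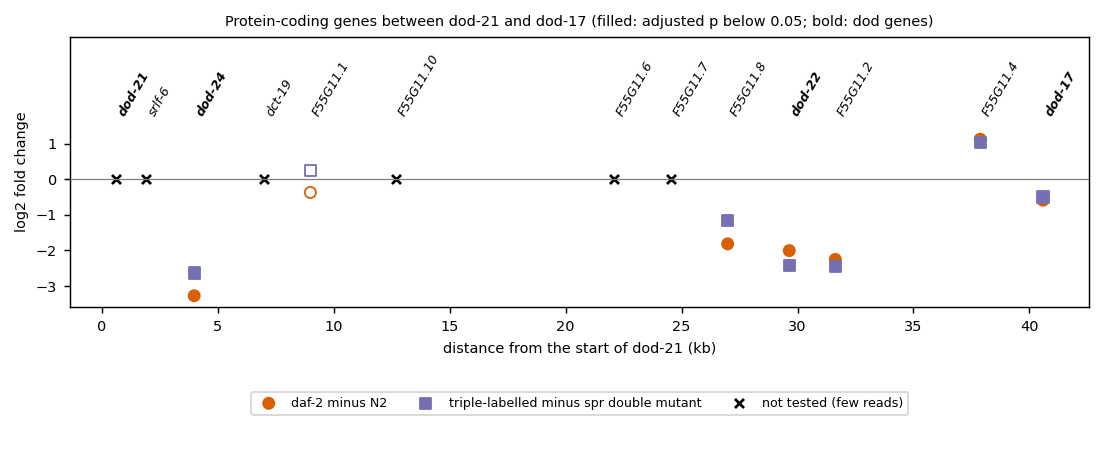
Log2 fold change (y axis) of the 13 protein-coding genes from dod-21 to dod-17 by their distance from the start of dod-21 (x axis, kb), for daf-2 minus N2 (circles) and triple-labelled minus spr double mutant (squares). Filled symbols passed at edgeR adjusted p below 0.05, crosses mark genes with too few reads, and names in bold are dod genes. F55G11.4 is at 1.12 between dod-22 at -2.01 and dod-17 at -0.59 for daf-2 minus N2.

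Genes within 10 kb of the other dod genes were mixed as well. Between dod-19 and dod-20 lies irg-8, an infection response gene, at 199 ± 3.59 CPM in N2 and 47.3 ± 6.1 in the triple-labelled libraries. It fell by 0.69 in daf-2 against N2 and by 1.38 in triple-labelled against daf-2 libraries, the order of dod-20 rather than dod-19. Y39D8A.1, beside it, was at -0.25 in daf-2 against N2 (edgeR adjusted p = 0.0939), and B0554.5, beside dod-20, rose by 0.54. Near dod-6, T20G5.8 rose by 0.37 and the signalling gene epac-1 fell by 1.03 in daf-2 against N2, and T20G5.8 rose by 2.01 in triple-labelled against daf-2 libraries. Near dod-23, drd-1 fell by 0.64 and F49E12.8 was at -0.29 (edgeR adjusted p = 0.473). Near dod-18, C54G4.9 fell by 0.22 and the kinase gene rskn-2 rose by 0.13. None of the 7 neighbours of dod-3, all named as chemoreceptor genes of the srg and str families, had enough reads to be tested.

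The genes with the most similar patterns were found by the root mean square difference of centred log2 CPM over the 12 libraries, among 8686 tested genes with a gene name. For dod-3 these were ttr-26, a transthyretin-like gene (0.18), and the cytochrome P450 gene cyp-35B1 (0.21), on the log2 scale where dod-3 itself spanned 3.90. For dod-6 they were ttr-23 (0.171) and the linker histone gene hil-1 (0.192), over a span of 3.47. The mean level of ttr-26 was 157 CPM for daf-2, 36.7 for the spr double mutant and 224 for triple-labelled worms. ttr-23 went from 3.71 to 23.8, 8 and 42.6 CPM in the same order, stepwise like dod-6.

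For dod-22 the nearest were the cytochrome P450 gene cyp-13A2 (0.218) and the fatty acid desaturase gene fat-7 (0.261), over a dod-22 span of 2.81. fat-7 had 131 CPM for N2, 24.5 for daf-2, 162 for the spr double mutant, and 30.6 for triple-labelled worms. For dod-23 they were sri-40 (0.188) and grsp-4 (0.215), for dod-24 plep-1 (0.291) and the collagen gene col-109 (0.312), and for dod-20 fipr-1 (0.301) and cest-28 (0.339). For dod-17 they were gale-1 (0.137) and acl-3 (0.144), for dod-19 metl-18 (0.0646) and ctsa-1.1 (0.0657), and for dod-18 mus-81 (0.0417) and swd-2.1 (0.0423). The last 3 dod genes spanned only 1.06, 0.51 and 0.31, so small differences there say little.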

How the data were processed

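The deposited values are raw, whole-number read counts per gene, 1 column per library, which the authors made with STAR and featureCounts 1.5.1 on WBcel235, per the submitters' processing notes. The labels' protocols give 500 ng of total RNA into a stranded mRNA kit and paired reads of 75 bp. Names and positions came from the WBcel235 annotation of Ensembl release 115, and 43720 of 46739 identifiers matched the name table. The 10 dod genes were matched by name.

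The test was that of edgeR 4.0.16 (R 4.3.3). After filterByExpr (minimum count 10) 15764 genes remained, and these were scaled by TMM and fitted in 1 robust quasi-likelihood model to all 12 libraries (8 residual degrees of freedom). The contrasts were tested two-sided with Benjamini-Hochberg adjustment over all genes tested. SEs are the log2 fold change over the square root of F. Alternatives were DESeq2 1.42.0, limma-voom (limma 3.58.1), scaling by RLE or by library totals, no filter, a minimum of 1 CPM in 6 libraries, a replicate block, models with only the compared groups, and leaving out each library. Only the main model was also run on simulated counts, for daf-2 against N2, and the alternatives were not.

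The dod genes and the gene lists were chosen with earlier results of these data known. Named genes were all dod genes, the 2 called genes per list with the largest change in daf-2 against N2, the 2 most similar genes per dod gene, and the 2 neighbours within 10 kb with the largest change. Further genes of the regulator list and of the chromosome IV stretch were named after their values were seen. Of the 16 names in the p38 list 10 matched a gene by name, and the others were left out of its counts. Promoter and protein sequences were not used here, so no motif search was made. No replicates were alike within counting error: chi-square over its degrees of freedom was 3.4 or more.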

Additional observations from a re-analysis of the deposited data

Results flagged for a closer look

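The daf-2 difference of 4 dod genes differed with the spr label by the interaction term of edgeR's quasi-likelihood test. The log2 terms were -1.35 for dod-3, 0.64 for dod-24, -0.38 for dod-19 and -0.30 for dod-18. In dod-3 and dod-24 the groups with the daf-2 label lay close together, and N2 and the spr double mutant lay apart. In dod-19 N2 was the lowest group, and in dod-18 the spr double mutant was the highest. dod-18 shares exon bases with a gene on the opposite strand, whose part in its term was not tested.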

How the results depend on the processing

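Of 54 dod log2 fold changes recomputed under the alternatives, 1065 values in all, 17 lost and 5 gained a call. The number of dod genes called in triple-labelled against daf-2 libraries was 5, and 3 with at least 1 CPM in 6 libraries, a filter that leaves out dod-20. It was 3 to 6 when single libraries were left out. Signs turned only for differences that were never called: dod-19 in that comparison (0.0266 with library totals, 0.0141 with at least 1 CPM in 6 libraries, -0.0880 to 0.0524 without single libraries), dod-22 there (-0.0859 to 0.245 without single libraries), and the interaction of dod-6 (0.0092 with library totals, -0.209 to 0.0273 without single libraries), dod-17 (-0.0349 to 0.186) and dod-20 (0.0580 with library totals, -0.291 to 0.178 without single libraries). With the replicate block 8 dod genes were called in daf-2 against N2 and 5 in triple-labelled against daf-2 libraries, the counts without it. Residuals of libraries with the same number had a median correlation of 0.00 over 18 pairs, so the numbers were not taken as pairs. Over all genes, interaction calls with library totals were 3632 higher and 1054 lower, against 2224 and 2299, and 2253 in place of 3708 genes were lower in triple-labelled against spr double mutant libraries. The fit of only the groups compared was not run for the interaction, which uses all groups. Where a call was lost, the cause was not tested beyond the construction named. At 0 to 7 reads a library dod-21 is limited by depth. Without a filter it was called in daf-2 against N2 (edgeR adjusted p = 0.013), which makes 9 dod genes there.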
